A study of Mus musculus with 4 samples.

Results

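Ly6c2, F13a1, Lgals3, Cybb, Ly86 and Ctsc are 6 genes of classical monocytes, the Ly6C-high monocytes of the mouse. They were taken by symbol from the 3624 genes of a single-cell count table, and all 6 were measured. Each gene was followed by library and genotype, and for its detection in the same cell as neutrophil granule genes or as Irf8. The cells were Lin-Sca-cKit+Cd34+ progenitors sorted from C57Bl/6J fetal liver at E14.5 and profiled on the 10x Genomics Chromium platform. Libraries A and B came from Gata2-77-/- embryos, which lack, on both alleles, an enhancer that lies far upstream of Gata2. F and I are the wild type libraries, from embryos of the same strain and age. The question the groups pose is how loss of the enhancer changes these progenitors, with 2 embryos per genotype as the replicates.

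Monocytes and neutrophils share a granulocyte-monocyte progenitor. Irf8, a transcription factor, favours the monocyte and dendritic cell fates over the neutrophil fate, while secondary granule genes such as Camp, Ngp and Lcn2 are switched on as neutrophil precursors mature. Ly6c2 encodes a GPI-anchored surface antigen used to recognise classical monocytes, although granulocyte precursors carry it too. Ly86 encodes MD-1, the secreted partner of the Toll-like receptor homologue CD180. Cybb encodes gp91phox, the catalytic subunit of the phagocyte NADPH oxidase, and Ctsc encodes cathepsin C, the lysosomal dipeptidase that activates granule serine proteases. F13a1 encodes the A subunit of coagulation factor XIII, a transglutaminase, and Lgals3 encodes galectin-3, a carbohydrate-binding protein of macrophages and other cells.

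The 6 genes lie on 5 chromosomes of the mm10 build (GENCODE M21, coordinates of the whole gene). Ly6c2 spans chr15:75108158-75111970 on the minus strand and Lgals3 spans chr14:47367751-47386160 on the plus strand. Cybb spans chrX:9435252-9487771 on the minus strand, and Ctsc spans chr7:88278085-88310888 on the plus strand. F13a1 (chr13:36867178-37050244, minus strand) and Ly86 (chr13:37345208-37419036, plus strand) share chromosome 13 and are 294963 bp apart. Promoter sequence was read from RefSeq on GRCm38.p6, as 250 bases before to 50 bases after each annotated start, and 8 such windows matched the 6 genes. The windows of Ly6c2 and Ly86 are shown because these genes contrasted in the partners they were detected with, and that of Cybb because it alone held a motif of an ETS factor beside an IRF factor. Capitals mark matches, on either strand, to any of the 4 motifs found and spelled out after the sequences. The windows are chr15:75111922-75112221 (minus strand) for Ly6c2, chr13:37345095-37345394 (plus strand) for Ly86 and chrX:9469275-9469574 (minus strand) for Cybb, the last inside the GENCODE span of the gene.
Ly6c2: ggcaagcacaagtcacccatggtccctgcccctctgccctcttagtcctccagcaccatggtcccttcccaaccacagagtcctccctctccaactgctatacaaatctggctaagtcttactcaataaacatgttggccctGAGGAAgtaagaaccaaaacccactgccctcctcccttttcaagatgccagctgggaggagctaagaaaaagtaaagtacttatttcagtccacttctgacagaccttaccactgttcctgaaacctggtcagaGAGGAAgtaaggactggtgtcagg
Ly86: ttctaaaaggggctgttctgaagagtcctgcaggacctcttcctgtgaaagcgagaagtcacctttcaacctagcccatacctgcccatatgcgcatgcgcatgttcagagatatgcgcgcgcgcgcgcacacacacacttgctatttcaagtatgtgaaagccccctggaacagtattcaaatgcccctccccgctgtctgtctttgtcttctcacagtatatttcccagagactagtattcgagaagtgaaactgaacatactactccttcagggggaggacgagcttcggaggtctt
Cybb: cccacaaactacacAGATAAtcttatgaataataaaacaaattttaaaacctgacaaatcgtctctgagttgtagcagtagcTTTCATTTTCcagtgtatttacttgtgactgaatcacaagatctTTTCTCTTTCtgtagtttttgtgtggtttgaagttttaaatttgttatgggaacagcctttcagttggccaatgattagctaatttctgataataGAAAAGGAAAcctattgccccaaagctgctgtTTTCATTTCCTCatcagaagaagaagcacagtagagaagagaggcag
The PU.1 core GAGGAA stood in promoters of 4 of the 6 genes (Ctsc, Cybb, F13a1 and Ly6c2) and in 28.3% of all 32851 promoters of that length. The ETS-IRF composite, GGAA followed after any 2 bases by GAAA, stood in the Cybb promoter alone among the 6, overlapping the PU.1 core there, and in 2.72% of all promoters. The core of the interferon-stimulated response element, the letters GAAA repeated after any 2 bases, matched at 3 places in Cybb alone among the 6, and in 3.44% of all promoters. The GATA motif AGATAA was also in Cybb alone among the 6, and in 11.2% of all. TTGCNNAA (C/EBP) was in none of the 6, and in 10.8% of all. These letter matches are a description of the sequence and show no binding.

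Libraries A and B held 2235 and 2745 cells with medians of 7492 and 7087 UMIs (unique molecular identifiers), and F and I held 3042 and 1938 cells with medians of 12826.5 and 17437.5 UMIs. Gata2 stood at 7.48 and 6.73 panel CPM (CPM with the UMIs of the 3624 genes as the total) in Gata2-77-/- libraries, against 26.3 and 23.2 in wild type libraries. Of the genes of the sort, Kit was at 40.3 and 39.6 panel CPM against 41.8 and 45.2, and Cd34 at 306 and 333 against 186 and 210. Markers of mature liver macrophages and of endothelium were near 0 (1 gene of each list measured, at 3.76 panel CPM or less in every library). The summed neutrophil list was 5703 and 5535 panel CPM in Gata2-77-/- libraries, against 17263 and 12813 in wild type libraries. The summed monocyte/macrophage list, without the 6 genes, was 651 and 604 against 378 and 385 panel CPM. Xist had 0 and 8171 UMIs in libraries A and B, against 1 and 16675 in F and I.

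Over all cells, none of the 6 genes passed the test for a genotype difference, and Ly6c2 came closest. Ly6c2 was at 78.6 and 40.0 panel CPM in Gata2-77-/- libraries A and B, against 228 and 150 in wild type libraries F and I. Both Gata2-77-/- libraries were below both wild type libraries, and A was above B and F above I. The means were 59.3 ± 27.3 and 189 ± 54.8 panel CPM (SD, n = 2 each), a fitted log2 difference of -1.72 (SE 0.38, 95% interval -2.68 to -0.77) with adjusted p = 0.0544 by edgeR. Of 3622 genes tested, 8.86% passed, and Ly6c2 was 338th by p. The adjusted p of Ly6c2 was 0.0453 with DESeq2 size factors, 0.00510 with library totals, 0.0418 with every cell thinned to equal depth, 0.000276 where Xist was fitted as a covariate and 0.0252 by DESeq2. Without library A, B, F or I it was 0.0627, 0.106, 0.0956 or 0.0407, so the call depended on the scaling and on single libraries.

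The other 5 genes differed by less. Ly86 was at 57.1 and 43.9 panel CPM in Gata2-77-/- libraries, against 42.8 and 43.1 in wild type libraries. The groups did not overlap, but library B lay close to both wild type libraries, and the fitted log2 difference was 0.18 (adjusted p = 0.518). Cybb was at 28.3 and 21.0 panel CPM in Gata2-77-/- libraries, against 23.3 and 22.2 in wild type libraries. The wild type values lay between those of A and B, and the fitted log2 difference was 0.06 (adjusted p = 0.881). Ctsc was at 80.0 and 64.6 panel CPM in Gata2-77-/- libraries, against 76.8 and 118 in wild type libraries. Only library I stood apart, and the fitted log2 difference was -0.47 (adjusted p = 0.258).

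F13a1 was at 114 and 90.5 panel CPM in Gata2-77-/- libraries, against 119 and 116 in wild type libraries. Library B was the low one, A differed little from wild type, and the fitted log2 difference was -0.24 (adjusted p = 0.344). Lgals3, measured on 171 and 129 UMIs in Gata2-77-/- libraries and 444 and 358 in wild type libraries, was at 10.2 and 6.48 against 11.1 and 10.6 panel CPM. Again B was the low library, and the fitted log2 difference was -0.43 (adjusted p = 0.467). Both Gata2-77-/- libraries were thus below both wild type libraries for 3 of the 6 genes, as for 18.5% of all genes, and above them for 1, as for 35.5%. The median log2 difference of the 6 genes was -0.34, against 0.00 over all genes tested. In summed libraries, fewer cells of a type and less RNA per cell cannot be told apart.

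**Figure D1:**
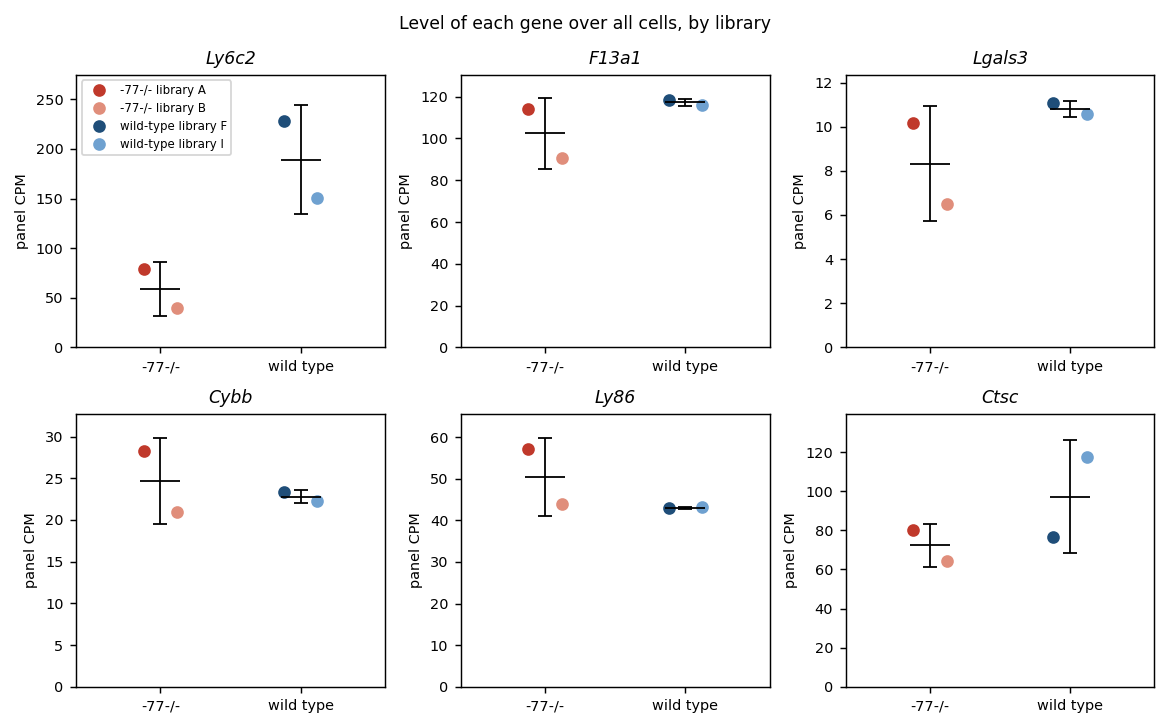
Level of each of the 6 genes summed over all cells of a library (y axis, panel CPM, each panel with its own scale) in Gata2-77-/- libraries A and B and wild type libraries F and I; bars are the mean and SD of 2 libraries. Ly6c2 is at 78.6 and 40.0 in Gata2-77-/- libraries and at 228 and 150 in wild type libraries, and the other genes lie closer together.

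The share of cells with a UMI was compared after every cell had been thinned to 4346 UMIs, which left out 855 Gata2-77-/- and 140 wild type cells that were shallower. Ly6c2 was detected in 15.5% and 9.44% of Gata2-77-/- cells, against 29.3% and 21.9% of wild type cells (unthinned, 18.3% and 11.9% against 40.1% and 36.4%). Both Gata2-77-/- libraries were again below both wild type libraries. F13a1 was detected in 30.9% and 25.0% against 28.4% and 29.0% of cells, and Ctsc in 22.4% and 20.3% against 19.2% and 24.7%. The wild type shares lay between those of A and B for F13a1 and on either side of them for Ctsc. Ly86 was detected in 16.2% and 14.3% of Gata2-77-/- cells against 12.1% and 12.4% of wild type cells, and Cybb in 10.4% and 7.95% against 7.81% and 7.65%. Both Gata2-77-/- libraries were above both wild type libraries for this pair of genes at that depth. How many of all genes separated the genotypes in this measure was not counted. The direction turned when cells were thinned to the median of 9777 UMIs, with Ly86 in 19.7% and 17.9% against 19.9% and 20.2% and Cybb in 12.6% and 8.03% against 14.52% and 14.4% of cells. It also turned in the mean without thinning, where the difference, Gata2-77-/- minus wild type, was -2.01 percentage points for Ly86 and -5.46 for Cybb. Lgals3 was detected in 3.48% and 2.05% against 3.41% and 3.25% of cells, with overlap.

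As a background, the 85 wild type erythroid-like cells deep enough to be thinned (median 10660 UMIs before thinning) held a Ly6c2 UMI in 1 cell, F13a1 in 2, Lgals3 in 1 and Ctsc in 3, while Cybb and Ly86 were in none, which allows a share of up to 3.53%. These shares were below those of every library for all 6 genes, although that of Lgals3, at 1.18%, was close to its 2.05% in library B. With 2 libraries per genotype, the smallest p an exact two-sided permutation test can give is 0.333. Ly6c2, Ly86 and Cybb reached it, as does any gene whose genotypes do not overlap. Irf8 was detected in 55.2% and 53.5% of Gata2-77-/- cells, against 29.6% and 28.5% of wild type cells. The secondary granule list had 6 measured genes, Camp, Ngp, Lcn2, Fcnb, S100a8 and S100a9; the last 2 encode calprotectin, a cytosolic protein of neutrophils and not a granule component. At least 1 of the 6 was detected in 13.5% and 9.40% of Gata2-77-/- cells, against 63.2% and 42.2% of wild type cells. That share was 2 of 6 Gata2-77-/- erythroid-like cells and 31 of 85 wild type ones (36.5%), and 0 of 6 and 2 of 85 (2.35%) when S100a8 and S100a9 were left out, so most of the list's background in that class came from these 2 transcripts.

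Cells with a UMI of any of the 6 genes held a gene of the secondary granule list less often, and Irf8 more often, in both Gata2-77-/- libraries than in either wild type library, as did cells with a UMI of nearly any gene. The shares moved that way, without overlap, for 100% of 3562 genes seen in at least 20 thinned cells of each library with the granule list, and for 99.9% of 3564 genes with Irf8. They follow the shares of the partners in all cells and are given as a description. Among cells with a Ly6c2 UMI, a gene of the granule list was also detected in 44.4% and 34.7% of 284 and 216 Gata2-77-/- cells, against 89.0% and 77.3% of 858 and 418 wild type cells. The groups did not overlap, and neither did they for any other of the 6 genes. For F13a1 the shares with a granule gene were 22.2% and 15.1% against 73.4% and 49.9%, and for Ctsc 18.7% and 12.3% against 65.9% and 49.4%. For Cybb they were 20.4% and 17.6% against 73.4% and 55.5%, for Ly86 12.8% and 12.8% against 58.2% and 41.5%, and for Lgals3, on 64 and 47 against 100 and 62 cells, 12.5% and 10.6% against 61.0% and 45.2%. Leaving out S100a8 and S100a9, a choice made after seeing the data, gave 19.4% and 11.1% against 54.0% and 45.0% for Ly6c2, and 4.03% and 3.66% against 18.4% and 10.2% for Ly86. The exact two-sided p was 0.333 for each gene and partner, the smallest possible.

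Irf8 was detected in 73.9% and 75.5% of Ly6c2-detected Gata2-77-/- cells, against 35.3% and 36.4% of Ly6c2-detected wild type cells. The 2 libraries of a genotype lay close together, and the genotypes differed by 38.9 percentage points in the mean. The shares with Irf8 were 75.2% and 73.6% against 50.2% and 45.4% for F13a1, 77.5% and 84.1% against 58.1% and 60.3% for Cybb, and 72.8% and 70.3% against 53.1% and 53.2% for Ctsc. For Ly86 they were 86.2% and 81.7% against 74.6% and 67.4%, and for Lgals3 81.2% and 68.1% against 53.0% and 58.1%. The genotypes did not overlap for any of the 6, but for Lgals3 the direction turned when 2 UMIs of each gene were required, with a mean difference of -4.38 points. For Ly86 the mean difference was 0.0847 points when cells were not thinned.

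Each share was also divided by the partner's share of all cells, so that 1 is what independent detection would give. For Ly6c2 and the granule list the ratio was 3.29 and 3.70 in Gata2-77-/- libraries, against 1.41 and 1.83 in wild type libraries. Ly6c2 was therefore found with a gene of the list more often than the product of the shares in all 4 libraries, and by more in both Gata2-77-/- libraries. Without S100a8 and S100a9 the ratios were 5.01 and 5.78 against 2.11 and 3.04. The ratio with the granule list was 1.64 and 1.603 against 1.16 and 1.18 for F13a1, 1.51 and 1.87 against 1.16 and 1.32 for Cybb, and 1.38 and 1.30 against 1.04 and 1.17 for Ctsc. Both Gata2-77-/- libraries were thus above both wild type libraries for 4 of the 6 genes, as for 25.7% of all genes. For Ly86 the ratio was 0.945 and 1.36 against 0.921 and 0.985, and for Lgals3 0.926 and 1.13 against 0.966 and 1.07, with overlap. Neither gene overlapped without S100a8 and S100a9. Ly86 then had 1.04 and 1.90 against 0.719 and 0.688, and Lgals3 2.02 and 1.11 against 0.744 and 0.983. These Lgals3 values rested on 5 and 1 Gata2-77-/- cells with both. F13a1, Cybb and Ctsc stayed above both wild type libraries without these transcripts. How many of all genes did so without them was not counted.

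With Irf8 the ratio ran the other way for 5 of the 6 genes, below both wild type libraries in both Gata2-77-/- libraries, as for 49.3% of all genes. Ly86 had 1.56 and 1.53 in Gata2-77-/- libraries, against 2.52 and 2.36 in wild type libraries, the highest of the 6 genes in every library but B, where Cybb had 1.57. Cybb had 1.40 and 1.57 against 1.96 and 2.12, and Lgals3 1.47 and 1.27 against 1.79 and 2.04. F13a1 had 1.36 and 1.37 against 1.70 and 1.59, and Ctsc 1.32 and 1.31 against 1.80 and 1.87. Ly6c2 alone was above, with 1.34 and 1.41 against 1.19 and 1.28, as were 15.6% of all genes. A common partner limits how high a ratio can be, and Irf8 was the more common in Gata2-77-/- libraries and the granule list in wild type libraries. Every ratio uses thinned cells of 1 library that share its depth.

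**Figure D2:**
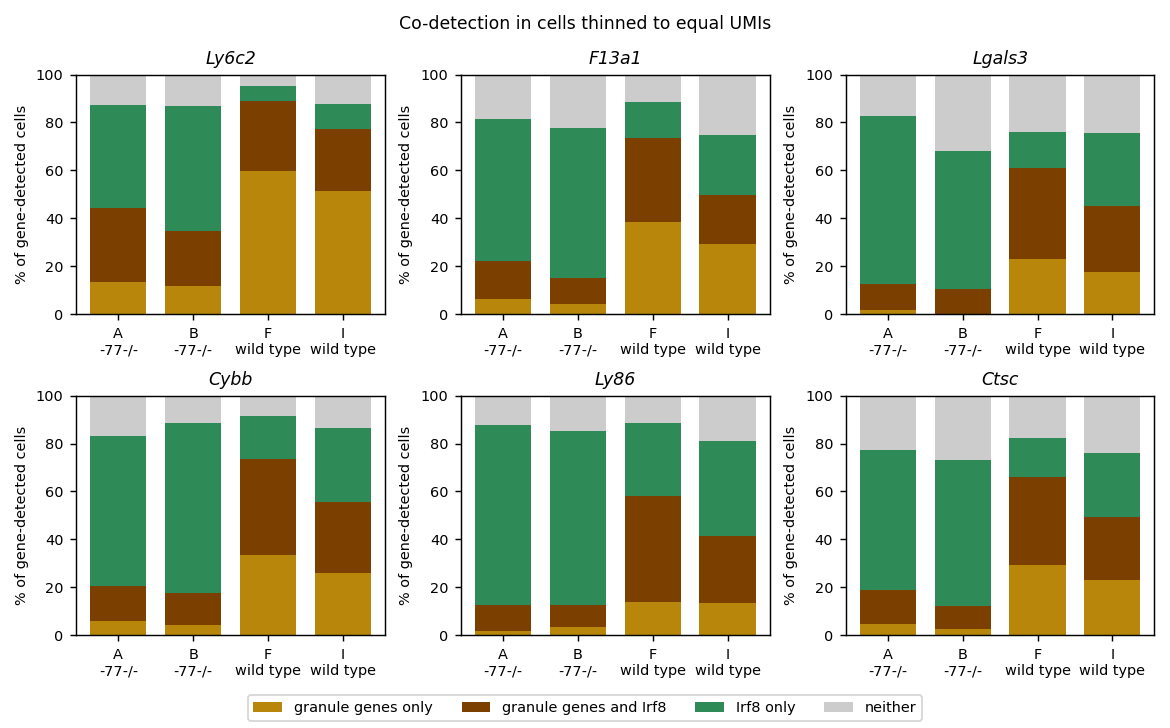
Share of the cells with a UMI of each gene (y axis, percent of gene-detected cells after thinning) in which granule genes alone, granule genes and Irf8, Irf8 alone, or neither were detected, by library. The granule genes here include S100a8 and S100a9. Of Ly6c2-detected cells, 43.0% and 52.3% had Irf8 alone in Gata2-77-/- libraries A and B, against 6.06% and 10.5% in wild type libraries F and I.

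Cells were then split into 4 states by detection of a secondary granule gene and of Irf8 after thinning. Granule-only cells made up 5.23% and 4.20% of Gata2-77-/- cells, against 45.5% and 30.7% of wild type cells, and Irf8-only cells 46.9% and 48.3% against 11.9% and 17.1%. Cells with both were 8.27% and 5.20% against 17.7% and 11.4%, and cells with neither 39.6% and 42.3% against 24.9% and 40.8%. Of Ly6c2-detected cells, granule-only cells held 13.4% and 11.6% in Gata2-77-/- libraries, against 59.8% and 51.4% in wild type libraries. Seen from the states, Ly6c2 was detected in 57.9% and 42.0% of Gata2-77-/- cells with both, against 48.5% and 49.5% of such wild type cells, and in 14.2% and 10.2% against 14.9% and 13.5% of Irf8-only cells. The share of Ly6c2-detected cells within a state overlapped between genotypes in 3 of the 4 states, all but cells with neither (4.95% and 2.90% against 5.75% and 6.55%).

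Within these states the fitted differences of Ly6c2 were smaller than over all cells, but they depended on how the states were set. In cells with both, Ly6c2 was at 435 and 287 panel CPM in Gata2-77-/- libraries, against 484 and 461 in wild type libraries (log2 difference -0.37, adjusted p = 0.814). In granule-only cells it was at 266 and 102 against 273 and 247 (-0.60, adjusted p = 0.421; -1.52 with adjusted p = 0.0460 without library A, and -0.03 without library B). In both states B was below the wild type libraries, and A was just below them in cells with both and between them in granule-only cells. Ly6c2 was at 51.6 and 33.8 against 68.5 and 58.4 panel CPM in Irf8-only cells (-0.56, adjusted p = 0.425), and at 16.0 and 9.96 against 25.1 and 20.3 in cells with neither (-0.87, adjusted p = 0.160). Both Gata2-77-/- libraries were below both wild type libraries in 3 of the 4 states, and how many of all genes did so within a state was not counted. None of these differences of Ly6c2 passed the test. In cells with neither it passed without library A (-1.27, adjusted p = 0.0457) and without S100a8 and S100a9 (-1.62, adjusted p = 0.0441). With states set by primary granule genes, Ly6c2 was at -1.35 in cells with both and -1.52 in granule-only cells, close to the -1.72 over all cells (adjusted p = 0.193 and 0.0697).

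None of the 6 genes passed in any state as first set. The share of all genes that passed was 0% in cells with both (0 of 3563, with 214 at an unadjusted p below 0.05), 1.8% in granule-only cells, 0% in Irf8-only cells (0 of 3584, with 409 unadjusted) and 4.73% in cells with neither. Ly86 was at 89.7 and 66.8 panel CPM in Irf8-only Gata2-77-/- cells, against 100.5 and 99.6 in such wild type cells, and at 16.4 and 24.8 against 14.3 and 15.3 in granule-only cells. It was higher in the states with Irf8 than in those without it in all 4 libraries, with 73.2 and 82.1 against 93.3 and 84.1 in cells with both, and 18.7 and 15.001 against 21.97 and 22.1 in cells with neither. F13a1 was at 199.6 and 202 against 254 and 227 panel CPM in cells with both, at 153 and 116 against 157 and 163 in Irf8-only cells, at 90.5 and 97.9 against 85.1 and 102 in granule-only cells, and at 53.8 and 45.1 against 47.0 and 65.9 in cells with neither. For F13a1 the genotypes overlapped in granule-only cells and in cells with neither, and library A was close to wild type in Irf8-only cells.

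Cybb ordered the states in the same way as F13a1 in every library: 53.2 and 51.7 against 48.7 and 54.1 panel CPM in cells with both, 36.5 and 27.8 against 31.8 and 39.5 in Irf8-only cells, 27.0 and 21.1 against 17.8 and 16.5 in granule-only cells, and 11.02 and 7.11 against 6.94 and 7.13 in cells with neither. Only in granule-only cells did the genotypes not overlap for Cybb, with Gata2-77-/- above wild type. Ctsc was at 170 and 156 against 185 and 303 panel CPM in cells with both, and at 101 and 80.3 against 107 and 189 in Irf8-only cells. In granule-only cells it was at 67.0 and 40.9 against 38.8 and 66.3. Library I was the highest in the states with Irf8, and the genotypes overlapped in granule-only cells. Lgals3 in granule-only cells rested on 2 and 1 UMIs in Gata2-77-/- libraries, at or under the floor of 3 UMIs, and was at 4.35 and 3.67 panel CPM in wild type libraries. In cells with both it was at 19.3 and 13.2 against 26.5 and 25.2 panel CPM.

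Summed secondary granule transcripts in Irf8-only cells, which had none after thinning, were 7.83 and 9.37 panel CPM in Gata2-77-/- libraries, against 106 and 52.2 in wild type libraries. In HSPC-like cells the same sum was 11.4 and 11.1 against 123 and 56.5 panel CPM. Granule transcripts thus differed between genotypes within Irf8-only cells too. Neither the part of background RNA in them nor their part in the levels was tested. When states were set on all UMIs, without thinning, Ly6c2 in Irf8-only cells turned to 0.09 (adjusted p = 0.934), and F13a1, Ly86 and Ctsc in cells with neither to 0.58, 0.91 and 0.32, none past the threshold.

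**Figure D3:**
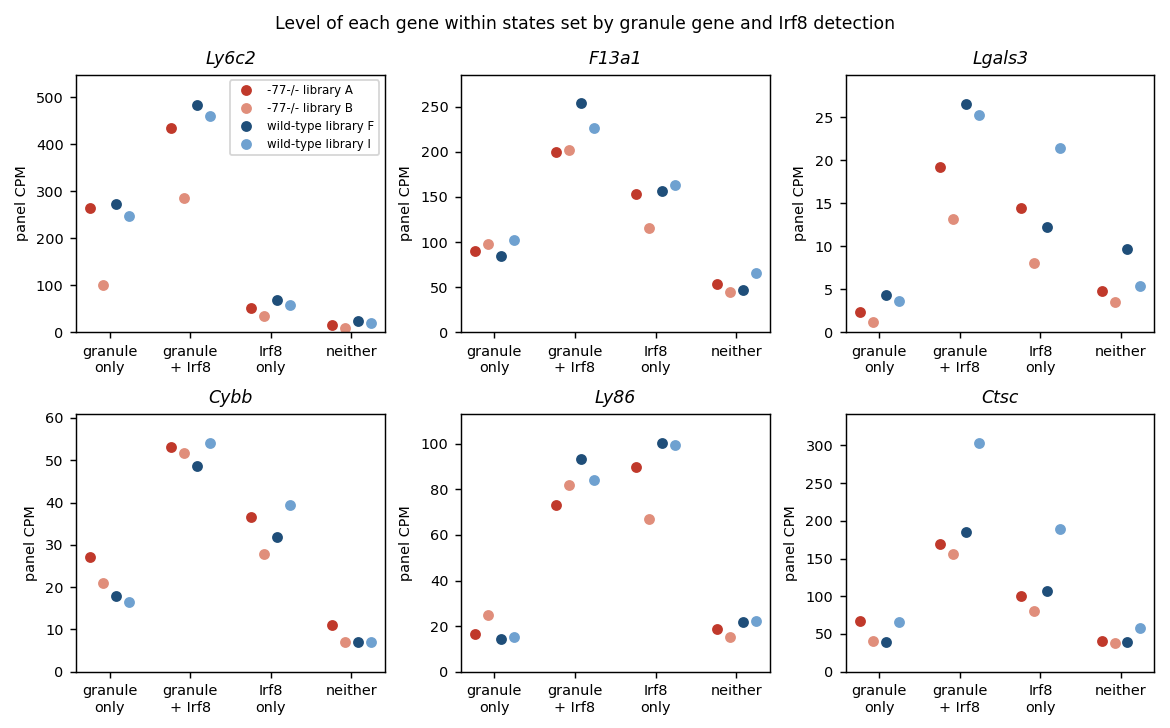
Level of each gene (y axis, panel CPM) within the 4 states by library, with Gata2-77-/- libraries left of wild type libraries in each state. Ly6c2 in cells with granule genes and Irf8 is at 435 and 287 in Gata2-77-/- libraries and at 484 and 461 in wild type libraries, without overlap.

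Weighting each library's state levels by the same mix of states, the mean share of panel UMIs over the 4 libraries, gave Ly6c2 levels of 127 and 68.6 panel CPM in Gata2-77-/- libraries, against 143 and 130 in wild type libraries. The log2 ratio of the means was -0.48 (97.9 ± 41.5 against 137 ± 9.16, SD, n = 2 each), where the observed mix of the same cells gave -1.65. The 2 genotypes did not overlap, with A just below I, but they did when 2 UMIs were required (146 and 83.3 against 147 and 127). The log2 ratio was then -0.26, and it was -0.88 without S100a8 and S100a9, and -1.31 with primary granule genes split at their median of 22 UMIs. The values -0.26 and -0.88 used states under the 50 cells asked of a fit. With 2 UMIs, cells with both numbered 37 and 26 in Gata2-77-/- libraries. Without S100a8 and S100a9 they numbered 45 and 30 there, and granule-only cells 26 and 14. For Ly86 the same weighting turned the log2 ratio to -0.26 where the observed one was 0.21, with 47.1 and 41.2 against 53.6 and 52.5 panel CPM. For Lgals3 it was -0.70 in place of -0.40, for Ctsc -0.51 in place of -0.42, for F13a1 -0.20 in place of -0.21 and for Cybb 0.07 in place of 0.06. No test was run on these weighted levels.

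Whether the genotype effect differed between states was tested with the library as a factor. Between granule-only and Irf8-only cells, Ctsc was the 1 gene of the 6 to pass, with a difference of effects of 0.62 on the log2 scale (SE 0.16, 95% interval 0.29 to 0.94, adjusted p = 0.00696), where 19.5% of 3618 genes passed. The levels behind it are the granule-only and Irf8-only values of Ctsc given above: Gata2-77-/- libraries were below both wild type libraries in Irf8-only cells and overlapped them in granule-only cells. Without library A the difference was 0.385 (adjusted p = 0.403), and with states set without thinning it was 0.61 with adjusted p = 0.0637. For Ly6c2 the difference was -0.10 (adjusted p = 0.694), but it passed as 0.61 when 2 UMIs were required (adjusted p = 0.00128), as -1.70 with primary granule genes (adjusted p = 0.000145) and as -0.58 without library A (adjusted p = 0.0188). Its sign therefore depended on the setting. Between cells with both and Irf8-only cells none of the 6 passed, where 1.47% of 3601 genes did; Ly6c2 was at 0.16 there, but passed at -1.49 with primary granule genes (adjusted p = 0.000159).

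Clusters built without the 6 genes and named by marker genes gave a second view. Monocyte/macrophage-like cells were 528 and 580 cells in Gata2-77-/- libraries and 207 and 98 in wild type libraries, and the neutrophil-like class held 48 and 30 against 949 and 386 cells. In monocyte/macrophage-like cells, Lgals3 and Ctsc fell in Gata2-77-/- libraries, where 0.563% of 3550 genes passed as lower and 1.83% in either direction. Lgals3 was at 37.0 and 25.4 panel CPM in Gata2-77-/- libraries, against 68.0 and 81.4 in wild type libraries. The genotypes were well apart (log2 difference -1.23, SE 0.19, 95% interval -1.66 to -0.80, adjusted p = 0.0321). Ctsc was at 166 and 138 panel CPM in Gata2-77-/- libraries, against 224 and 344 in wild type libraries. Again both were below, with library I highest (log2 difference -0.88, SE 0.18, adjusted p = 0.0426).

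These 2 calls were lost without library A, B or I, with adjusted p of 0.0697, 0.116 and 0.219 for Lgals3 and 0.1003, 0.208 and 0.278 for Ctsc, and they were lost at clustering resolution 0.6 (0.315 and 0.0770) and when the 6 genes entered the clustering (0.205 and 0.147). Gm26522, a lincRNA that overlaps Ctsc on the opposite strand, was at 28.5 and 35.7 against 40.8 and 55.2 panel CPM in this class, and reads of the pair cannot be told apart unless the counting used the strand, which is not given in the sources used here. The class was made of clusters 5 and 11. Cluster 5 had 210 and 327 Gata2-77-/- cells against 75 and 34 wild type cells. Cluster 11, led by Trem2, Id2 and Ifitm6, had 318 and 253 against 132 and 64. It was the larger of the pair in libraries A, F and I, and cluster 5 was the larger in B. In cluster 11 alone Lgals3 was at 62.6 and 54.4 against 100.7 and 124 panel CPM, and Ctsc at 216 and 210.2 against 291 and 451. The direction in that cluster was that of the class.

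The other 4 genes did not pass in monocyte/macrophage-like cells. Ly86 was at 170.4 and 132 panel CPM in Gata2-77-/- libraries, against 223 and 217 in wild type libraries, without overlap (log2 difference -0.53, adjusted p = 0.0885; 0.0194 with library totals). Ly6c2 was at 106 and 52.8 against 71.1 and 70.2 panel CPM, so the wild type values lay between A and B (0.18, adjusted p = 0.759), and the sign turned to -1.14 at resolution 0.6 and to -0.44 with the 6 genes in the clustering. F13a1 was at 202 and 166 against 182 and 170.4 panel CPM (0.08, adjusted p = 0.777). Cybb was at 69.1 and 66.3 against 69.7 and 92.7 panel CPM (-0.23, adjusted p = 0.395). For both genes a wild type library lay close to a Gata2-77-/- library.

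**Figure D4:**
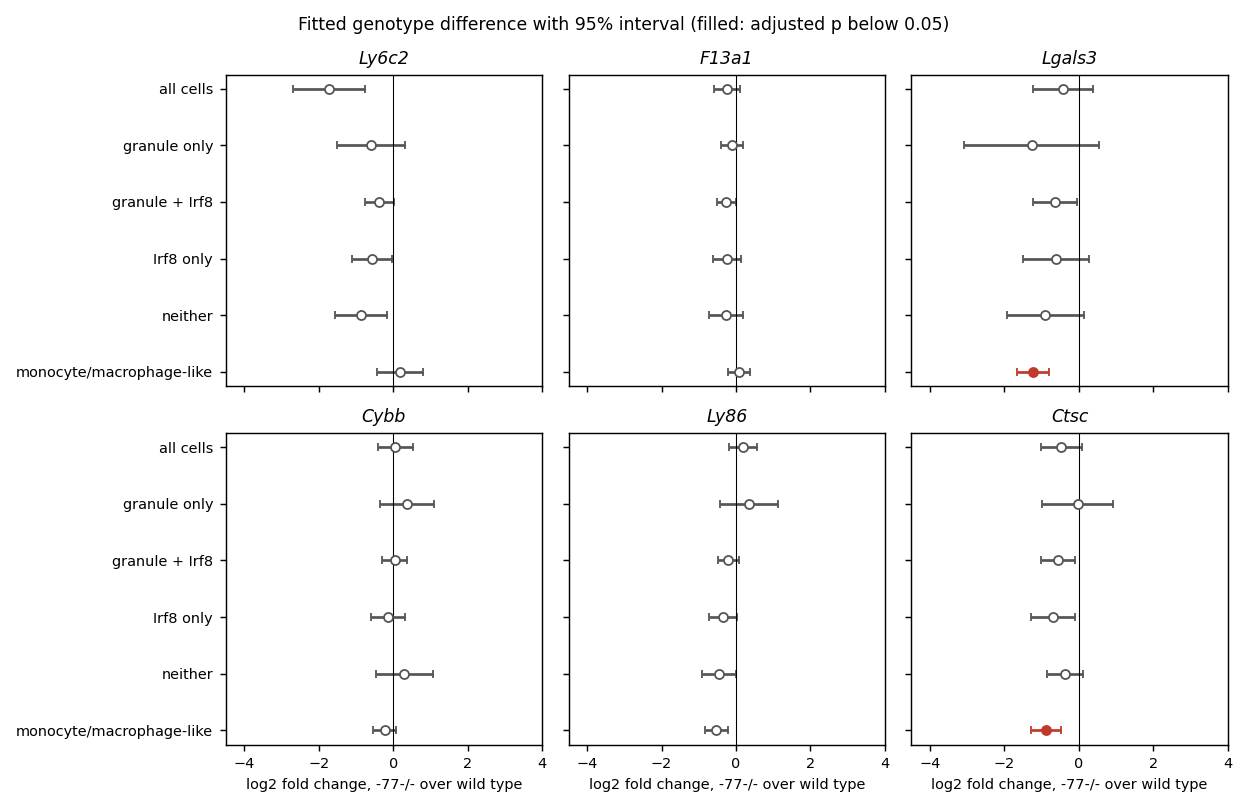
Fitted log2 difference, Gata2-77-/- over wild type (x axis), with its 95% interval for each gene over all cells, in the 4 states and in monocyte/macrophage-like cells; filled points passed an adjusted p of 0.05 by edgeR. Only Lgals3 (-1.23) and Ctsc (-0.88) in monocyte/macrophage-like cells are filled among the fits drawn.

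Monocyte/macrophage-like cells held 23.1% and 20.5% of all panel UMIs in Gata2-77-/- libraries, against 7.33% and 5.50% in wild type libraries. For each of the 6 genes, too, they held more of a library's UMIs in both Gata2-77-/- libraries than in either wild type library. How many of all genes did so was not counted, and the shares that follow are a description. Of all Ly6c2 UMIs of a library, neutrophil-like cells held 21.3% and 10.4% in Gata2-77-/- libraries, against 64.5% and 51.5% in wild type libraries, and monocyte/macrophage-like cells held 31.1% and 27.1% against 2.29% and 2.57%. Neutrophil-like cells, too few in Gata2-77-/- libraries for a test, had Ly6c2 at 736 and 389.5 panel CPM in Gata2-77-/- libraries, against 491 and 416 in wild type libraries, on either side of the wild type values. For Lgals3, monocyte/macrophage-like cells held 84.2% and 80.6% of UMIs against 45.0% and 42.5%, and Lgals3 had 0 UMIs in Gata2-77-/- neutrophil-like cells and was at 2.00 and 0.952 panel CPM in wild type ones. A further 15.8% and 9.497% of wild type Lgals3 UMIs lay in cluster 14, led by Car1, Ms4a2 and Gata1, where Lgals3 was at 20.9 and 18.1 panel CPM. That cluster held 4 and 1 Gata2-77-/- cells against 289 and 141 wild type cells. The share of UMIs in monocyte/macrophage-like cells was 69.0% and 61.8% against 38.2% and 27.7% for Ly86, and 56.5% and 64.8% against 21.9% and 22.9% for Cybb. It was 47.9% and 43.9% against 21.4% and 16.1% for Ctsc, and 40.9% and 37.7% against 11.2% and 8.09% for F13a1.

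Outside the monocyte/macrophage-like class, 3 unnamed clusters each held a member that fell. The alternative clusterings, under which the calls of the monocyte/macrophage-like class were lost, were not run for unnamed clusters. Whether the calls below hold under them was not tested. In cluster 12, led by C1galt1c1, Nrg1, Casp1 and Hp, Ctsc was at 163 and 157 panel CPM in Gata2-77-/- libraries, against 278 and 287 in wild type libraries. The 2 libraries of a genotype lay close together, and the log2 difference was -0.82 (SE 0.10, adjusted p = 0.00380), where 0.17% of 3530 genes passed and 0.113% as lower. Ly86 in the same cluster was at 44.7 and 52.3 against 107 and 84.5 panel CPM, without overlap (-0.96, SE 0.17, adjusted p = 0.0456; 0.0921 with library totals). Gm26522 is itself among the leading genes of this cluster, at 21.9 and 21.4 against 45.3 and 23.3 panel CPM, so the Ctsc values there carry the same limit. In cluster 3, led by Rpp40, Ruvbl2 and Ppid, F13a1 was at 29.0 and 31.0 panel CPM in Gata2-77-/- libraries, against 73.5 and 65.7 in wild type libraries. The genotypes were far apart (-1.22, SE 0.17, adjusted p = 0.0136 by edgeR), where 0.311% of 3535 genes passed and 0.17% as lower. Leaving out each library in turn gave -1.33 to -1.14. In cluster 6, led by Mcpt8, Ly86 was at 10.4 and 16.1 against 37.1 and 31.2 panel CPM (-1.40, SE 0.30, adjusted p = 0.0430; 0.313% of 3514 genes passed, 0.199% as lower), and it was lost without A, F or I (adjusted p = 0.0943, 0.283 and 0.116).

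No member passed in cluster 8 (0.0284% of 3525 genes passed), cluster 10 (0.732% of 3553) or HSPC-like cells (haematopoietic stem and progenitor cell markers; 0.785% of 3565). In HSPC-like cells Lgals3 and Cybb were too low to be tested, and Ly6c2 was at 2.24 and 1.88 panel CPM in Gata2-77-/- libraries against 4.19 and 3.16 in wild type libraries (log2 difference -0.90, adjusted p = 0.270). Lgals3 was not tested in clusters 3, 6, 8 and 10 either, nor Cybb in cluster 6. The genotype effect on Ctsc was lower in monocyte/macrophage-like than in HSPC-like cells by 0.87 on the log2 scale (SE 0.16, adjusted p = 7.22e-05), where 16.8% of 3588 genes differed. In HSPC-like cells Ctsc was at 19.9 and 20.4 against 18.1 and 20.8 panel CPM, with overlap, whereas both Gata2-77-/- libraries were below both wild type libraries in monocyte/macrophage-like cells. The same difference of effects was 1.054 for Ly6c2 (adjusted p = 0.0539) and -1.79 for Lgals3 (adjusted p = 0.0972), neither past the threshold.

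**Figure D5:**
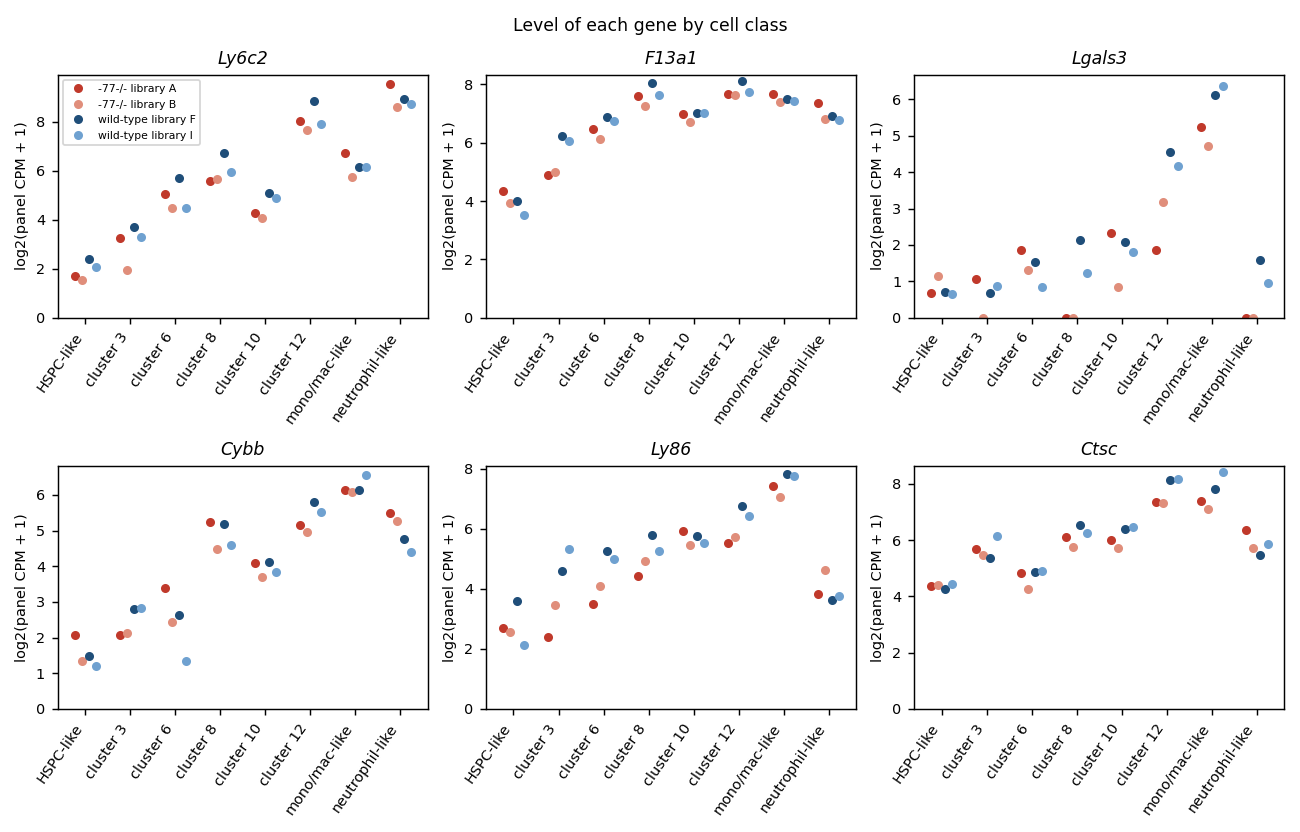
Level of each gene (y axis, log2 of panel CPM plus 1) by class or cluster, for those with at least 50 cells in each library and for neutrophil-like cells, with Gata2-77-/- libraries left of wild type libraries. Among the classes and clusters drawn, Ly6c2 is highest in neutrophil-like cells (736 and 389.5 against 491 and 416 panel CPM), while Lgals3 and Ly86 are highest in monocyte/macrophage-like cells. Smaller clusters are not drawn, among them cluster 13 (28 and 11 against 119 and 90 cells), which has Slpi among its leading genes.

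Among themselves the 6 genes overlapped only in part. At least 1 of them was detected in 52.1% and 45.6% of thinned Gata2-77-/- cells, against 55.03% and 52.1% of wild type cells, and all 6 in 3 and 1 against 5 and 3 cells. Lgals3 and Cybb were found together 4.36 and 4.28 times as often as the product of their shares in Gata2-77-/- libraries, against 4.22 and 4.43 times in wild type libraries. For Lgals3 and Ly86 the ratio was 3.85 and 3.12 against 3.15 and 3.39, and for Ly6c2 and Ly86 it was 1.498 and 1.81 against 1.09 and 1.59. These 2 pairs with Lgals3 had similar ratios in the 4 libraries, while Ly6c2 and Lgals3 had 2.02 and 3.16 against 1.23 and 1.77.

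Over 54 cluster-by-library sums of 18 clusters, the genes whose levels were most like those of Ly6c2 were Slpi (Pearson r of log2 panel CPM 0.95), Msrb1 (0.93), Stfa1 (0.92), Elane (0.91) and Cdk2ap2 (0.90). Those nearest to Ly86 were Rassf4 (0.93), Ms4a6c (0.93), Csf1r, the receptor for M-CSF (0.92), Pld4 (0.91) and Stx7 (0.89). Ly6c2 was thus closest to genes that include the granule protease Elane, and Ly86 to genes that include Csf1r, with r = 0.62 between the pair. F13a1 was nearest to Clec5a (0.94) and Tfec (0.93), Cybb to Sat1 (0.90) and Rbms1 (0.89), Ctsc to C1galt1c1 (0.89) and Asah1 (0.88), and Lgals3 to Ifi30 (0.73) and Prelid1 (0.73). These sums share libraries and depth, and the coefficients are descriptions without a test.

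Related genes over all cells are given as counts by edgeR. Of 40 other classical monocyte genes, 27 were measured, 7 were higher and 4 lower in Gata2-77-/- libraries, and 16 did not pass, with a median log2 difference of 0.35 against 0.00 over all genes. Among them Irf8 was higher (255 and 257 against 153 and 141 panel CPM, log2 difference 0.75, adjusted p = 0.00980) and so was Ifitm3, an interferon-induced membrane protein (0.79, adjusted p = 0.0135), while Hp, haptoglobin, fell by 1.62 (adjusted p = 0.00359) and Anxa1, annexin A1, by 1.048 (adjusted p = 0.00605). Genes of this list thus moved in both directions.

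Of the granule proteases that cathepsin C activates, 4 of 7 were measured and 3 were lower: Elane by -2.33, Ctsg by -1.25 and Prtn3 by -0.60 on the log2 scale (adjusted p = 0.00980, 0.00830 and 0.0273), with a list median of -0.93. The other, Mcpt8, was at 13.7 and 17.2 against 13.4 and 11.03 panel CPM. Of 7 partners of Cybb in the NADPH oxidase, all measured, Ncf4 fell by 0.50 (adjusted p = 0.0205), 6 did not pass and the median was -0.21. Of 8 measured cathepsins other than Ctsc, Ctsg and Ctsd (-0.25, adjusted p = 0.0482) were lower and 6 did not pass. None passed among 2 galectins (Lgals1 -0.36, adjusted p = 0.139), 1 gene of the Ly6 family (Ly6e 0.19, adjusted p = 0.212) and 1 partner of the Ly86 and CD180 pathway (Unc93b1 0.23, adjusted p = 0.125), and no transglutaminase other than F13a1 was measured. Ly6c1, the close copy of Ly6c2, was not in the panel. Their longest coding transcripts are 97.6% identical over 822 bases, so Ly6c2 counts carry the uncertainty of how reads of the pair were assigned.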

How the data were processed

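Single-cell RNA of 4 libraries, 2 per genotype from 2 embryos each, was read from a deposited table of UMI counts of 3624 genes in 9960 cells. Per the submitters' processing notes the authors used Cell Ranger 2.0.2, Seurat 2.3.4 and mm10, with no step beyond these names given in the sources used here; doublets were not called again. Library letters and genotypes came from the deposited cell grouping, and the table is a panel, so panel CPM is relative to these genes only. No 2 cells held identical counts.

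UMIs were summed per library (over all cells, states or classes with at least 50 cells in each library) and tested with edgeR 4.0.16 (R 4.3.3; quasi-likelihood, filterByExpr, TMM, Benjamini-Hochberg adjustment, threshold 0.05). Tests between states or classes used library as a factor. P-values measure the spread between these 4 libraries. Shares of cells were compared by exact two-sided permutation after thinning to 4346 UMIs, the 10th percentile. Clusters used scanpy 1.11.5 (1000 variable genes, 30 components, 15 neighbours, Leiden resolution 1.0) without the 6 genes, and were named by marker lists. Levels within states and classes use counts as deposited. Fits were tested on simulated data. Alternatives covered scaling, DESeq2 1.42.0, filters, depth, thresholds, granule lists, clustering (named classes only) and leaving out each library. Floors cover counting error only, while the 95% intervals of log2 differences come from the edgeR fit and carry the spread between libraries. The members and lists were chosen with earlier results of these data known. Named genes are the 6 members, up to 4 genes per list by smallest p, and the 5 of most similar level.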

Additional observations from a re-analysis of the deposited data

Results flagged for a closer look

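Whether a genotype effect differs between groups of cells was tested 3 times. Between monocyte/macrophage-like and HSPC-like cells, 16.8% of 3588 genes passed. Between granule-only and Irf8-only cells 19.5% of 3618 passed, so a call there was common among all genes. Between cells with both granule genes and Irf8 and Irf8-only cells 1.47% of 3601 passed. Ctsc passed in the first 2 tests and not in the last (0.09, adjusted p = 0.845 by edgeR). Its log2 difference, Gata2-77-/- over wild type, was lower in monocyte/macrophage-like than in HSPC-like cells by 0.87 (-0.87, SE 0.16, adjusted p = 7.22e-05 by edgeR), and this passed under every alternative run, with adjusted p up to 0.0119. Its log2 difference was higher in granule-only than in Irf8-only cells by 0.62 (SE 0.16, adjusted p = 0.00696), and this did not pass without library A or with states set without thinning. Gm26522, which overlaps Ctsc on the opposite strand, was at 28.5 and 35.7 panel CPM in Gata2-77-/- monocyte/macrophage-like cells, against 40.8 and 55.2 in wild type ones; its part in the Ctsc counts was not tested. No group had the 4 samples that a test for a single outlying library needs.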

How the results depend on the processing

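No paired analysis was possible because the library letters of the count table are not tied to the sample numbers in the labels. Of the log2 differences of the members recomputed under the alternatives, 309 kept direction and side of the threshold, 44 reversed, 16 lost and 13 gained the call; the cause was not tested. Over all cells, Ly6c2 passed the threshold with DESeq2 (-1.72), DESeq2 size factors (-1.73), thinned cells (-1.66), library totals (-1.68) and an Xist term (-1.77), and DESeq2 called 734 genes in place of 321. Requiring 2 UMIs reversed F13a1 (0.30) and Ly86 (-0.041) in granule-only cells, Cybb in Irf8-only cells (0.011), the difference of effects of Ly6c2 between these states (0.61) and Lgals3 with Irf8 (-4.38 points), with 1 gene called in Irf8-only cells. Clustering with the 6 genes reversed Ly6c2 (-0.44) and F13a1 (-0.14) in monocyte/macrophage-like cells, with 0 genes called by edgeR in place of 65. Without S100a8 and S100a9, an alternative chosen after seeing the data, 10 genes were called in Irf8-only cells and 356 in cells with neither, where Ly6c2 was at -1.62 (adjusted p = 0.0441). Library totals reversed F13a1 (0.013) and Ctsc (0.072) in granule-only cells and the difference of effects of Ly6c2 (0.035), and called 64 genes in HSPC-like, 147 in monocyte/macrophage-like, 131 in granule-only and 15 in Irf8-only cells. States set without thinning reversed Cybb (-0.011) and Ctsc (0.20) in granule-only cells, Ly6c2 (0.089), F13a1 (0.18) and Cybb (0.25) in Irf8-only cells, F13a1 (0.58), Ly86 (0.91) and Ctsc (0.32) in cells with neither, and the difference of effects of Ly6c2 between cells with both and Irf8-only cells (-0.16). That setting called 1 gene in Irf8-only cells, and 0 (main 53) and 437 (main 704) in the tests between states. Unthinned shares of cells reversed for Cybb (-5.46 points) and Ly86 (-2.01), and thinning to the median did so for Cybb (-4.12), Ly86 (-1.24) and Ctsc (1.02). With the primary granule list, Cybb in cells with both (-0.38), Ly86 in granule-only cells (-0.016), Ly6c2 (0.071) and F13a1 (0.12) in Irf8-only cells, and F13a1 (0.29) and Cybb (-0.064) in cells with neither reversed, as did the differences of effects of Ly6c2 (-1.49, then past the threshold) and Ctsc (-0.24) between cells with both and Irf8-only cells; 5, 333 and 5 genes were called in cells with both, granule-only and Irf8-only cells, and 246 and 1150 between states. At resolution 0.6, Ly6c2 (-1.14), F13a1 (-0.23) and Cybb (0.090) in monocyte/macrophage-like cells and the difference of effects of Ly6c2 between classes (-0.60) reversed, and 66, 20 and 273 genes were called in HSPC-like cells, monocyte/macrophage-like cells and between them.

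Leaving out each library in turn gave -2.34 to -1.29 for Ly6c2, -0.21 to 0.30 for Cybb and -0.066 to 0.39 for Ly86 over all cells. It gave -0.45 to 0.64 for Ly6c2 and -0.12 to 0.25 for F13a1 in monocyte/macrophage-like cells, -0.021 to 0.094 for Cybb in cells with both, -1.52 to -0.03 for Ly6c2 (past the threshold without A), -0.49 to 0.34 for Ctsc and -0.20 to 0.0017 for F13a1 in granule-only cells, -0.39 to 0.084 for Cybb in Irf8-only cells and -0.071 to 0.64 for Cybb in cells with neither. Between states it gave -0.00011 to 0.22 for Ctsc (both minus Irf8-only) and -0.58 to 0.19 for Ly6c2 (granule-only minus Irf8-only). Shares of cells ranged from -3.70 to 2.26 points for F13a1, -1.28 to 0.15 for Lgals3 and -3.35 to 2.17 for Ctsc. Genes called ranged from 66 to 291 over all cells, 2 to 136 in HSPC-like cells, 0 to 56 in monocyte/macrophage-like cells, 29 to 128 in cluster 3, 3 to 66 in cluster 6, 2 to 19 in cluster 8, 17 to 50 in cluster 10 and 13 to 96 in cluster 12, and from 322 to 512 between classes. They ranged from 0 to 4 in cells with both, 0 to 207 in granule-only cells, 0 to 27 in Irf8-only cells, 95 to 252 in cells with neither, and from 7 to 82 and 382 to 595 between states. States with under 50 cells in a library were not fitted, which left out the granule states without S100a8 and S100a9 and, with 2 UMIs, cells with both. Where 1 library of a genotype remained, it was assumed to vary like the other 2.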
